A study of Oryza sativa with 2 samples.

Results

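The antioxidant and redox enzymes of rice (Oryza sativa) were examined in whole seedlings exposed to carbon ion beams, set against untreated seedlings. Members were all probes with 1 gene whose symbol or synonym begins with the family names for catalase (CAT-A, CAT-B or CAT-C), ascorbate peroxidase (APX), superoxide dismutase (SOD), glutathione peroxidase (GPX), dehydroascorbate reductase (DHAR), monodehydroascorbate reductase (MDAR), glutaredoxin (GRX), thioredoxin (TRX), alternative oxidase (AOX), metallothionein (MT) or glutathione S-transferase (GST). The rule found 71 probes for 60 genes, of 15798 genes with a probe of their own, and all 71 had a value on both arrays. It found 0 probes for GPX, DHAR or CAT-C. Of the 71 probes, 2 belong to SDG723, a SET-domain gene that matched through its synonym TRX1 and is no thioredoxin, so 69 probes stand for redox genes.

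The irradiated seedlings were grown on MS medium, were 7 days old and were irradiated for 2 h 35 min with carbon ions, which ionize densely along their path. The control seedlings were healthy, had the same age and medium and were not irradiated. The labels used here give no cultivar, dose or time of harvest after exposure. The irradiated and control extracts were hybridized together to 2 two-channel arrays with the dyes swapped, which makes 1 replicate per group, so no difference has a replicate check and no test was made.

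Plants make superoxide and hydrogen peroxide in chloroplasts, mitochondria and peroxisomes, and ionizing radiation adds more by splitting water. Superoxide dismutase turns superoxide into hydrogen peroxide, which catalase breaks down in peroxisomes and ascorbate peroxidase reduces with ascorbate. Monodehydroascorbate reductase regenerates ascorbate, thioredoxins and glutaredoxins reduce disulfides, glutathione S-transferases join glutathione to reactive compounds, metallothioneins bind metals through cysteines, and alternative oxidase passes mitochondrial electrons to oxygen and bypasses later steps of the respiratory chain.

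Each ratio is log2 of irradiated over control on the normalized scale. Where a pair of ratios is given, the first is from the array with irradiated RNA in Cy5 and the second from the array with the dyes swapped. A mean is followed by ±, the distance of each array from it, which is no SD and holds dye bias besides noise. Every direction is likely and not certain, because no source states that Cy5 is the numerator of the deposited ratios. Probes were paired with genes through a numbering other than the listed one. In whole seedlings, fewer cells of a type and less RNA per cell cannot be told apart.

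The precision of a ratio depended on the brightness of its spot. Over all probes, ranked by recovered intensity into 10 deciles, the robust SD of the arrays' distance from their mean was 0.20 for the brightest decile and 0.92 for the dimmest. Across probes the arrays correlated at r = 0.58 in the brightest 2 deciles and at r = -0.28 over all. Member spots had a median intensity of 422 against 207 for all probes, and 24 of the 71 lay in the brightest decile. The green shoot marker probes, 9 of 9, were within 1.5-fold by the mean. Of them 2 were past 2-fold in opposite directions on the arrays. On both arrays 0 of the 9 were higher and 3 lower, where 22.3% and 21.9% of all probes were. The 3 were RCABP69, CAB1R and RCAR5, an abscisic acid receptor that matched by spelling. Of the 29 root marker probes 26 were within 1.5-fold by the mean, against 86.9% of all probes. A probe of the phosphate transporter OsPht1;8 stood highest at 2.06, with 0.43 at its other probe, while NRT2.2 at -0.72 and OsPHT1 at -0.60 were past 1.5-fold downward. OsPHT1 has the synonym HCT3 and matched by spelling. The spots of NRT2.2 and OsPHT1 were dim, in deciles 2 and 4. On both arrays 5 root marker probes were higher and 7 lower, where 22.3% and 21.9% of all probes were. Besides NRT2.2 and OsPHT1, the lower ones were probes of PIP2-1, PIP2-2 and Lsi6. Their spots were in deciles 9 and 10, with means from -0.44 to -0.28. The part of tissue makeup in the ratios was not tested.

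Of the 71 redox probes, 5 differed by at least 1.5-fold in 1 direction on both arrays. At 2-fold on both arrays 0 of the 71 probes were higher, where 1.92% of all 22574 probes were, and 0 were lower, where 0.266% were. At 3-fold on both arrays the member counts were then 0 and 0 by construction, where 0.811% of all probes were higher and 0.0266% lower. At 1.5-fold on both arrays 3 member probes were higher, that of the alternative oxidase AOX1 and 2 of the glutathione S-transferase GSTU6, where 3.67% of all probes were. At the same threshold 2 were lower, those of the catalase CAT-A and the glutaredoxin GRXC10, where 1.52% of all probes were. By the mean of both arrays 1 member, AOX1, was at least 2-fold higher and 1, CAT-A, at least 2-fold lower, where 2.99% and 0.961% of all probes were. The member median was 0.033 against -0.0051 for all probes, and 65 of the 71, or 91.5%, lay within 1.5-fold by the mean, against 86.9% of all probes. Of the 71, 16 were higher on both arrays, 10 lower on both and 45 of opposite sign, and over all probes these shares were 22.3%, 21.9% and 55.8%. With each array centred on its median in place of loess, 6 of the 26 members whose arrays shared a sign still did. These were AOX1, a probe of APX7, OsCXXS1, GRXS6, GRXS9 and GRXC10. In decile 10, 0 of the 14 such members did. Median centring leaves in place the trend of the dye ratio with spot intensity. Under it the bright SodCc1, with a loess mean near 0, stood at 1.02 and -1.37. The share over all probes was not computed, so these counts tell nothing particular to the members.

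**Figure D1:**
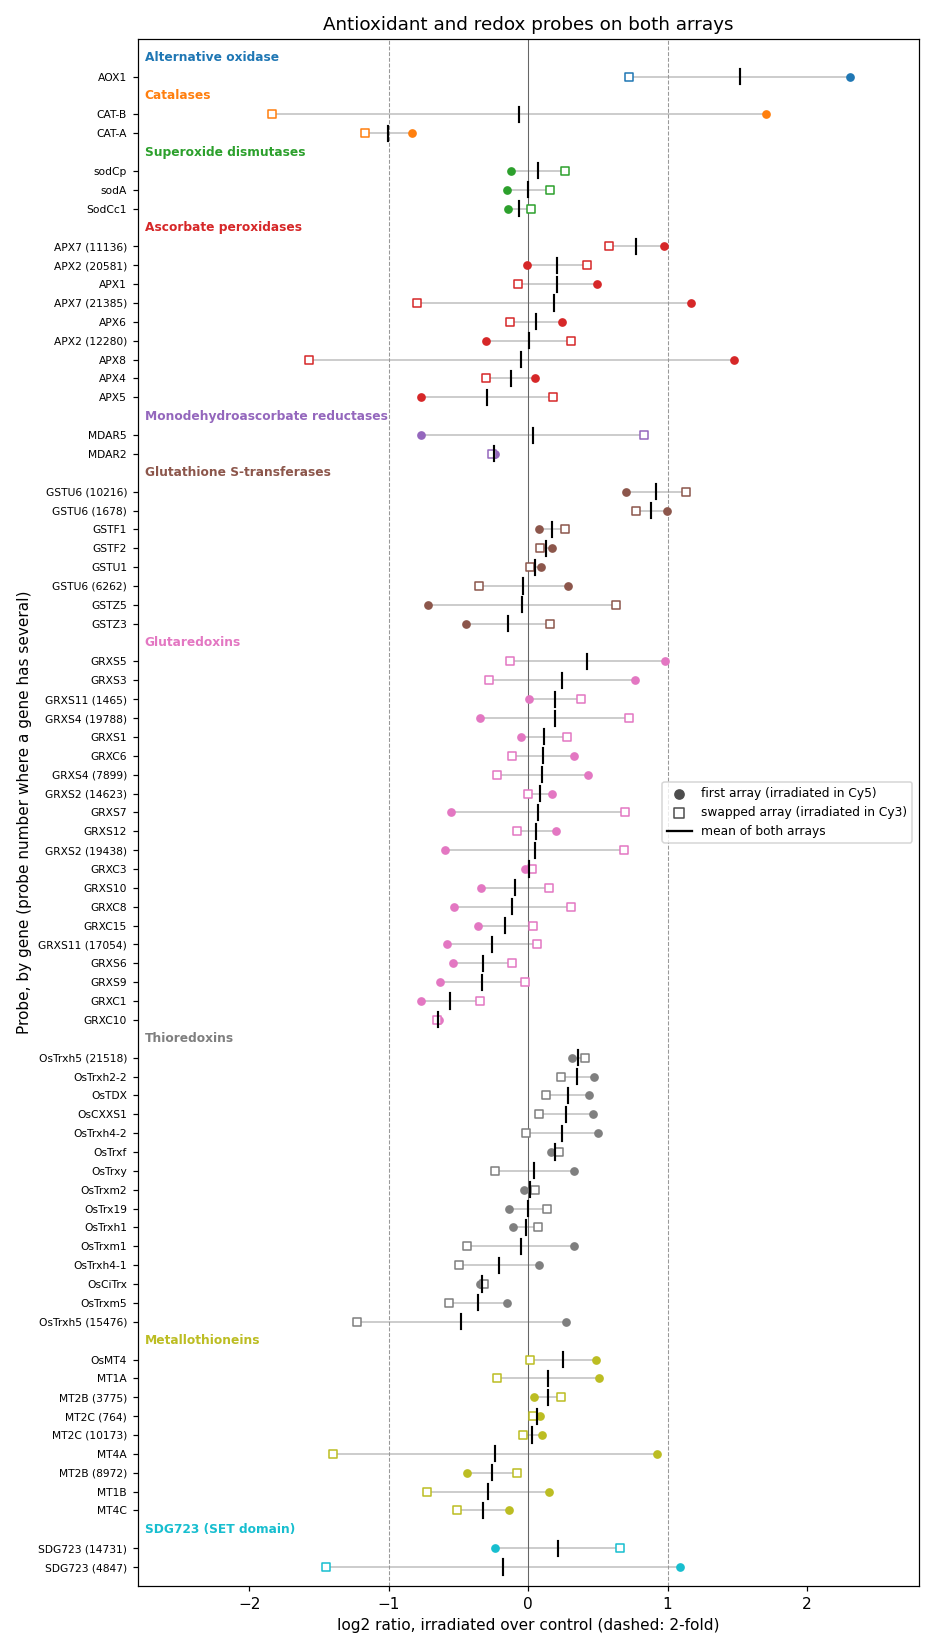
Log2 ratio of irradiated over control (x axis) for each of the 71 probes (y axis, grouped by family and labelled by gene). Filled circles are the first array, open squares the swapped array, black ticks the mean, and dashed lines mark 2-fold. AOX1 lies farthest to the right with a mean of 1.52 and CAT-A farthest to the left with -1.0, while 65 ticks lie within 1.5-fold of 0.

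Alternative oxidase had the highest member. AOX1 (LOC4336874), the 1 AOX gene with a probe, stood at 2.31 and 0.73. Both arrays placed it higher in irradiated seedlings, one well beyond 2-fold and the other between 1.5-fold and 2-fold. The mean was 1.52 ± 0.79, or 2.86-fold higher. As deposited, its ratios of irradiated over control were 2.49 and 2.44 once the swapped array was turned. The spot was dim, at an intensity of 94.4 in decile 2, where the distance of arrays from their mean had a robust SD of 0.71. Its mean lay at percentile 99.7 of that decile. It was past 2-fold on both arrays in 3 of 7 normalizations, among them median centring with 1.15 and 1.96, and its mean lay between 1.480 and 1.55 in all 7.

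The catalases, which break down hydrogen peroxide, differed in how their arrays compared. CAT-A (LOC4328073) stood at -0.83 and -1.17. Both arrays placed it lower in irradiated seedlings, either side of 2-fold. The mean was -1.0 ± 0.17, or 2.00-fold lower, on a bright spot at 4647 in decile 10, and it lay at percentile 1.06 of that decile. CAT-B (LOC4342124) stood at 1.70 and -1.84, a mean of -0.066 ± 1.77. Its arrays lay far apart with opposite signs, and its spot was dim at 118.

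The arrays placed CAT-A on the same side only after the dye trend was removed. Its deposited ratio of irradiated over control was 1.44 with irradiated RNA in Cy5 and 0.105 with irradiated RNA in Cy3. With each array centred on its median it stood at 0.36 and -2.57, and the arrays had opposite signs. Its mean lay between -1.11 and -0.99 in all 7 normalizations, and a dye trend shared by both arrays cancels in a mean by construction.

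**Figure D2:**
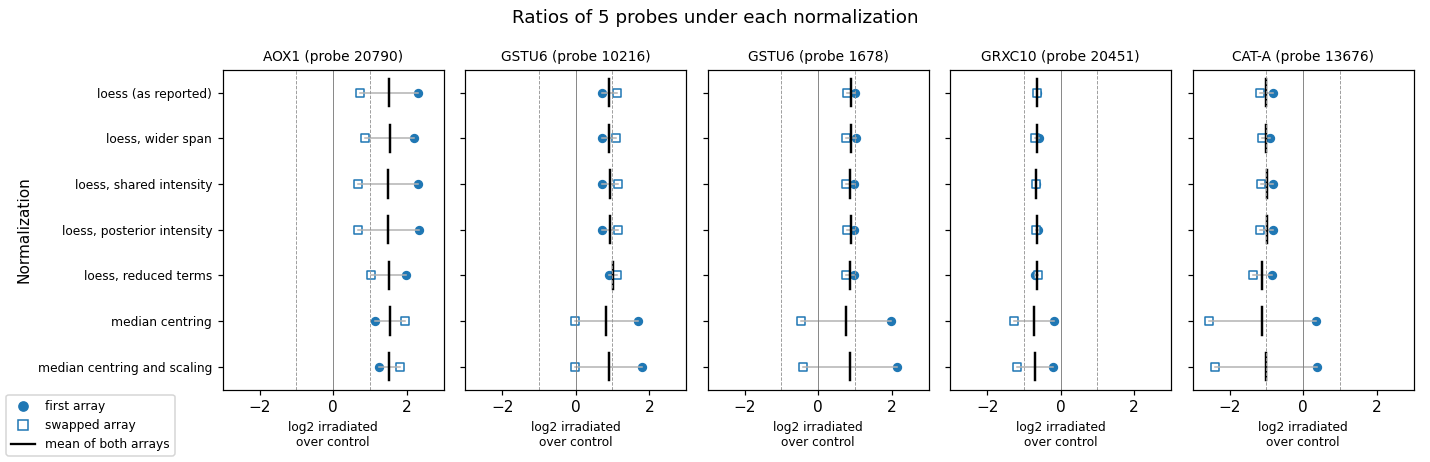
Log2 ratio of irradiated over control (x axis) of AOX1, both brighter GSTU6 probes, GRXC10 and CAT-A under 7 normalizations (y axis). Filled circles are the first array, open squares the swapped array, black ticks the mean, and dashed lines mark 2-fold. The ticks of CAT-A stay between -1.11 and -0.99, while its arrays spread to 0.36 and -2.57 under median centring.

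The superoxide dismutases, which make hydrogen peroxide from superoxide, stood near their control level, all 3 on spots in decile 10. The plastid copper-zinc enzyme sodCp stood at -0.12 and 0.26, a mean of 0.068 ± 0.19. The mitochondrial manganese enzyme sodA stood at -0.15 and 0.16, a mean of 0.0019 ± 0.16. The cytosolic copper-zinc enzyme SodCc1 stood at -0.15 and 0.019, a mean of -0.064 ± 0.083. For each of the 3 genes the arrays lay on either side of 0.

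There were 9 ascorbate peroxidase probes for 7 genes. Of them 0 were past 1.5-fold on both arrays, where 3.67% of all probes were higher and 1.52% lower. Arrays of opposite sign were found for 8 of the 9, and for 55.8% of all probes. The exception was a probe of APX7, an enzyme of the chloroplast stroma, at 0.97 and 0.58 with a mean of 0.78 ± 0.20. It was higher in irradiated seedlings on both arrays and lay just below 1.5-fold on the swapped one. The other APX7 probe stood at 1.17 and -0.80, with arrays of opposite sign. Its deposited values gave 306 over 125 and 2 over 1, and no common factor was restored to either. Its low recovered intensity of 16.6 is therefore unreliable. Its mean ran from -0.42 with a wider loess span to 0.45 with median centring and scaling. APX8, bound to thylakoids, had arrays as far apart as 1.47 and -1.57, on a dim spot.

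APX1, a cytosolic enzyme with a bright spot at 3506, stood at 0.49 and -0.073, a mean of 0.21 ± 0.28. The probes of APX2, also cytosolic, stood at -0.0060 and 0.42 and at -0.30 and 0.31, both on dim spots. APX5, the lowest of the family, stood at -0.77 and 0.18, a mean of -0.30 ± 0.47. In each of these probes the arrays had opposite signs. APX6, whose gene lies next to APX5 with 0 genes between them, had a mean of 0.054 ± 0.19, and APX4 had -0.13 ± 0.18.

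The monodehydroascorbate reductases, which return oxidized ascorbate to its reduced form, were within 1.5-fold by the mean. MDAR2, on a bright spot, stood at -0.23 and -0.26, a mean of -0.25 ± 0.011 at percentile 14.5 of its decile. Its arrays nearly coincided below 0, but stood at 0.78 and -1.49 with each centred on its median. MDAR5 stood at -0.77 and 0.83, on either side of 0 with a mean of 0.033 ± 0.80.

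Among glutathione S-transferases, GSTU6 (LOC4349207), of the plant-specific tau class, had the highest values. Its probe 10216 stood at 0.70 and 1.13, a mean of 0.92 ± 0.21, or 1.89-fold higher in irradiated seedlings. Its probe 1678 stood at 0.998 and 0.77, a mean of 0.88 ± 0.11, or 1.85-fold. Both spots were in decile 10, and on each of them both arrays were past 1.5-fold and at most 1 was past 2-fold. With each array centred on its median the probes stood at 1.69 and -0.029, and at 1.98 and -0.46, so the arrays then had opposite signs. Another, dimmer probe of the gene, 6262, stood at 0.29 and -0.35 with a mean of -0.034, so the probes of GSTU6 disagree.

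The other GST genes were within 1.5-fold by the mean. GSTU1, also of the tau class, had the brightest member spot and stood at 0.095 and 0.010. GSTF2 and GSTF1, of the phi class, had means of 0.13 ± 0.042 and 0.17 ± 0.092. GSTZ3, the lowest of the family, stood at -0.44 and 0.15, a mean of -0.15 ± 0.30. GSTZ5 stood at -0.715 and 0.63, past 1.5-fold in opposite directions, with a mean of -0.042 ± 0.67. Of the 8 GST probes 5 were higher on both arrays, 2 of them those of GSTU6, where 22.3% of all probes were. On both arrays 0 were lower, where 21.9% of all probes were. The family median was 0.089. With each array centred on its median, GSTF1 stood at 0.18 and -0.34 and GSTF2 at 1.38 and -1.36. GSTU1 then stood at 1.36 and -1.48, so these genes, like GSTU6, had arrays of opposite sign.

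**Figure D3:**
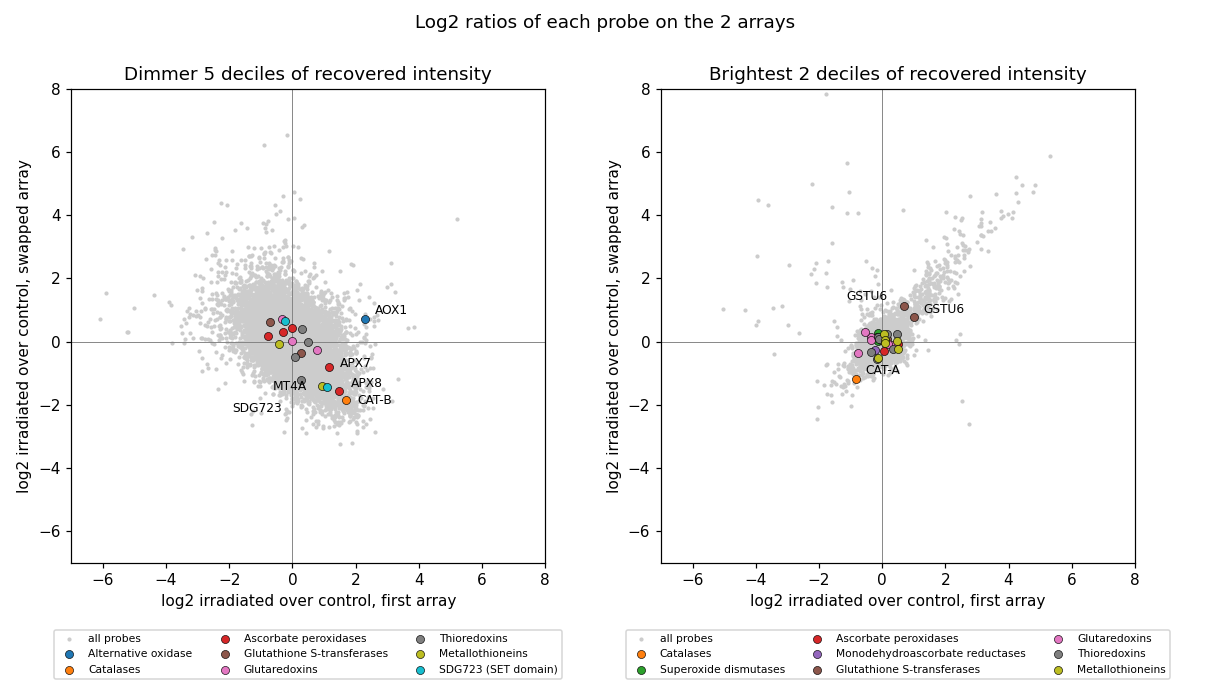
Log2 ratio of irradiated over control on the first array (x axis) against the swapped array (y axis), for probes in the dimmer 5 deciles (left) and the brightest 2 deciles (right). Grey points are all probes and coloured points are members. Dim members such as CAT-B at 1.70 and -1.84 lie along the falling diagonal, where the arrays disagree, while AOX1 lies at 2.31 and 0.73 and the bright CAT-A at -0.83 and -1.17.

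Glutaredoxins, small enzymes that reduce disulfides with glutathione, made up the largest family with 20 probes for 17 genes, and 19 of the 20 were within 1.5-fold by the mean. The lowest was GRXC10 (LOC4351046), at -0.64 and -0.65. Its arrays nearly coincided, although at this brightness the distance of arrays from their mean had a robust SD of 0.34. The mean was -0.65 ± 0.0066, or 1.57-fold lower in irradiated seedlings, at percentile 2.22 of its decile. With each array centred on its median it stood at -0.19 and -1.26, and was then past 1.5-fold on 1 array only. GRXC1, on a bright spot at 1692, stood at -0.77 and -0.35, a mean of -0.56 ± 0.21. It too was lower on both arrays, past 1.5-fold on one of them, but stood at 0.29 and -1.61 with each array centred on its median.

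The highest glutaredoxin was GRXS5 at 0.98 and -0.13, a mean of 0.43 ± 0.56, where the arrays had opposite signs. GRXS12, with the brightest spot of the family at 6266, had a mean of 0.057 ± 0.14. The probes of GRXS2 stood at 0.17 and -0.0030 and at -0.59 and 0.69. Those of GRXS4 stood at 0.43 and -0.23 and at -0.34 and 0.72. Those of GRXS11 stood at 0.0061 and 0.38 and at -0.58 and 0.065. Of these 6 probes only the first of GRXS11 had arrays of the same sign. Over the family 1 probe was higher on both arrays, 4 were lower on both (GRXC10, GRXC1, GRXS6 and GRXS9) and 15 had arrays of opposite sign, where 22.3%, 21.9% and 55.8% of all probes did so. The family median was 0.052.

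Thioredoxins were within 1.5-fold by the mean in 15 of 15 probes for 14 genes, with a median of 0.013, and 8 of the 15 spots were in decile 10. OsTrxh2-2, of the h type, stood at 0.47 and 0.23, a mean of 0.35 ± 0.12, the highest of the family on a bright spot. OsTrxf, a plastid thioredoxin that activates enzymes of carbon fixation in the light, stood at 0.16 and 0.22, a mean of 0.19 ± 0.031. Both were higher on both arrays, by less than 1.5-fold. With each array centred on its median, OsTrxh2-2 stood at 1.53 and -1.05 and OsTrxf at 1.24 and -1.08, of opposite sign. OsTrxm5, of the plastid m type, stood at -0.15 and -0.57, a mean of -0.36 ± 0.21. OsCiTrx stood at -0.34 and -0.32, a mean of -0.33 ± 0.012 at percentile 10.7 of its decile. These were the 2 thioredoxins lower on both arrays, where 21.9% of all probes were. Under median centring their arrays too had opposite signs, at 0.79 and -1.71 for OsTrxm5 and 0.75 and -1.63 for OsCiTrx. Of the 15 probes 5 were higher on both arrays and 8 had arrays of opposite sign, where 22.3% and 55.8% of all probes did so. The higher ones included OsTDX and OsCXXS1, with means of 0.28 and 0.27. The deposited values of OsTDX gave 5 over 3 and 728 over 313, a gap that restoring common factors could not bridge. With loess on the mean intensity of the probe over both arrays OsTDX stood at 0.20 and -0.063. With each array centred on its median it stood at 0.57 and -0.55, so its arrays had opposite signs under either setting. Those of OsCXXS1 kept the same sign, at 0.46 and 0.11 and at 0.45 and 0.070. The probes of OsTrxh5 stood at 0.31 and 0.41 and at 0.27 and -1.23, the highest and lowest means of the family, and both were dim.

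Metallothioneins, small cysteine-rich proteins that bind metals, were within 1.5-fold by the mean in 9 of 9 probes for 7 genes, with a median of 0.030. The probes of MT2C stood at 0.083 and 0.038 and at 0.098 and -0.037, all close to 0, but the mean of the second was 0.78 on terms without restored common factors. The bright probe of MT2B stood at 0.043 and 0.24 and its dim probe at -0.44 and -0.080, on opposite sides of 0. OsMT4 was the highest at 0.48 and 0.013, a mean of 0.25 ± 0.24. MT4C, with 1 gene between it and MT4A in the genome, was the lowest at -0.14 and -0.51, a mean of -0.33 ± 0.19. MT4A was dim and stood at 0.92 and -1.40, with arrays of opposite sign. MT1A and MT1B had means of 0.14 ± 0.36 and -0.29 ± 0.44.

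The SET-domain gene SDG723 stood at -0.24 and 0.66 and at 1.09 and -1.45 on its probes, both dim and both with arrays of opposite sign. Without them the counts at 2-fold and 1.5-fold could not change, as neither probe was counted, and the median of 0.033 was the same.

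**Figure D4:**
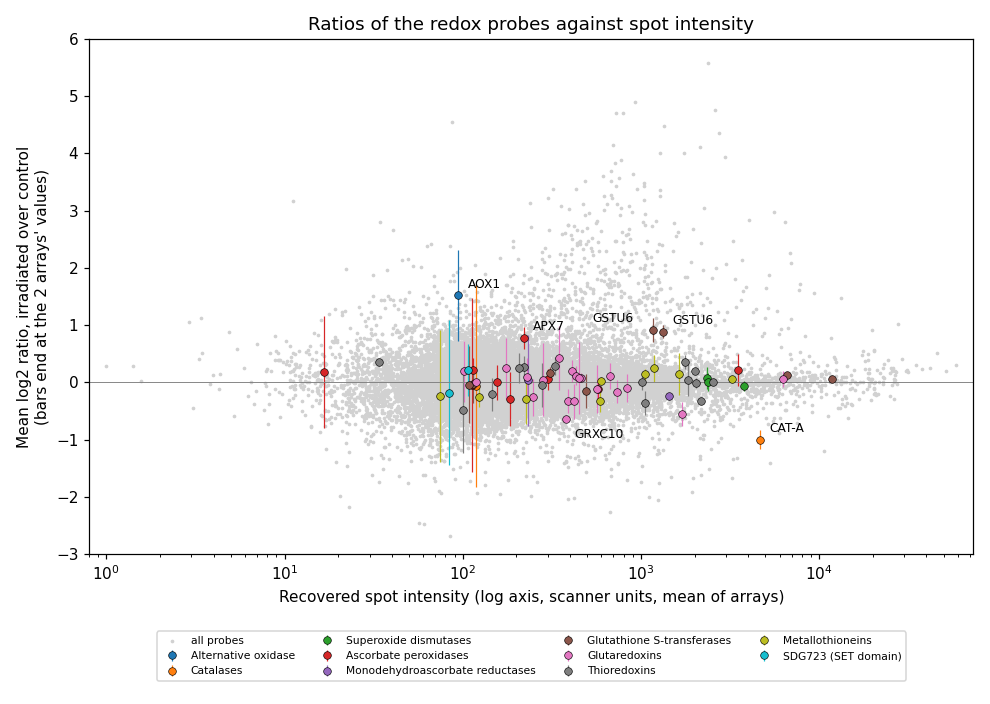
Mean log2 ratio of irradiated over control (y axis) against recovered spot intensity (x axis, log scale) for all probes (grey) and members (coloured), with bars that end at the values of the 2 arrays. Bars are long on dim spots and short on bright ones. Those of CAT-A at -1.0 and the bright GSTU6 probes at 0.92 and 0.88 do not reach 0. This holds for any probe whose arrays share a sign, 36.6% of member probes and 44.2% of all probes. Under median centring the arrays of these CAT-A and GSTU6 probes had opposite signs.

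The arrays lay closer together on bright member spots, at a median distance from their mean of 0.13 in decile 10 against 0.50 in deciles 1 to 5. Of the 24 members in decile 10, 9 were higher on both arrays, 5 lower on both and 10 of opposite sign, so 58.3% shared a sign against 54.3% of all probes there. Their median was 0.054 against -0.0045 for all 2257 probes there. In deciles 1 to 5, 15% of 20 members had arrays of the same sign, against 36.4% of all probes there. Over all deciles 3 members, CAT-B, APX8 and a probe of SDG723, were at least 2-fold in opposite directions, where 5.15% of all probes were.

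Of the 60 genes, 10 had more than 1 probe. The means of their probes lay close for MT2C, where they differed by 0.030, and for GRXS2, by 0.036. On terms without restored common factors they lay apart, at 0.095 and 0.78 for MT2C and at 0.077 and -0.38 for GRXS2. They differed by 0.84 for OsTrxh5, 0.59 for APX7, 0.45 for GRXS11, 0.40 for MT2B and 0.39 for SDG723. The difference for APX7 involves the probe with an unreliable recovered intensity. The bright probes of GSTU6 differed from each other by 0.0315 and from its dim probe by 0.92 and 0.95.

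Few genes that act beside these enzymes had a named probe. Of them 0 were past 1.5-fold on both arrays, where 3.67% of all probes were higher and 1.52% lower. The NADPH oxidase OsrbohB, which makes superoxide at the plasma membrane, stood at -0.17 and -0.78 and at -0.28 and -0.28 on its probes, lower on both arrays at each. In ascorbate synthesis, GME-1 stood at -0.15 and -0.35, GME-2 at -0.54 and 0.061 and GLDH1 at 0.47 and -0.71. The class III peroxidase PRX74 stood at -0.19 and 0.45, the glutathione synthesis gene gcs at -0.41 and 0.49, and 6PGDH2, which supplies NADPH, at -0.51 and 0.040. Of these, GME-1 alone had arrays of the same sign. The names searched for glutathione reductase, glyoxalase, ferritin and mitochondrial bypass enzymes matched 0 probes.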

How the data were processed

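Whole-seedling RNA was hybridized to 2 two-channel arrays of 22575 probes, of which 22574 had a value on both. The values the authors deposited were read as log10 ratios of the channels, a unit taken from the values. Per the series' design text a GenePix scanner and GeneSpring version 4 were used, but column medians of 0.051 and 0.20 showed no centring. Background handling: not given in the sources used here. Each value was read as the simplest fraction of whole-number intensities within 9 decimals. Common factors up to 59 were restored as the most likely pair given both arrays, after which intensity correlated between arrays at 0.92, against 0.54 before. Each array was normalized by loess on intensity (span 0.3, 3 robustness iterations), taken to log2, and the array with irradiated RNA in Cy3 was negated. Both arrays carry the same replicate number in the labels, so they count as 1 replicate and no test was made. The steps were tested on simulated data, in which the arrays lay closer in intensity than the spread of 0.106 fitted to the real ones. For some members, among them APX6, OsTDX and a probe of APX7, the terms differed between arrays by more than a factor of 59. Restoration could not bridge this, so their intensities and ratios are less certain. The number of arrays limits the precision.

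Of 17860 annotated probes 17839 had 1 gene and 21 several, and all 17839 matched RefSeq assembly ASM3414082v1, used for names only. The other 4715 probes are unnamed here. Annotation numbers were paired with array positions by counting down each of 215 columns of 105 rows in reverse. With this numbering 99.0% of 210 spots that followed the dye were unlisted, against 17.6% as listed, and probe pairs of a gene correlated in intensity at 0.22 against 0.016. The members and lists were chosen with earlier results of these data known. Values on both arrays are given for members past 1.5-fold on both arrays or just outside, the highest and lowest of each family, catalases, AOX and genes with several probes; other members and the root markers were named after their values were seen. Green shoot and root markers were matched by name, which can match by spelling alone, as for the abscisic acid receptor RCAR5. Lists by gene description were not used here. Python 3.11.15 and statsmodels 0.14.6 were used.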

Additional observations from a re-analysis of the deposited data

How the results depend on the processing

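The counts of 0 higher and 0 lower member probes at 2-fold on both arrays were the same under some other settings. These were a wider loess span, loess on shared or posterior mean intensity, and 1 value per gene. The counts were also 0 and 0 at 3-fold, in the brightest 2 and the brighter 5 deciles, as Cy3 over Cy5 and without SDG723. In these last settings counts of 0 cannot change, by construction. Loess on shared and posterior intensity and leaving out SDG723 were chosen after seeing the data. The counts were 3 and 2 at 1.5-fold, 1 and 1 for the 2-array mean alone, 5 and 0 on the first array alone, and 1 and 6 on the swapped array alone. They were 1 and 0 with median centring, with scaling as well, and on terms without restored factors, where the probe was that of AOX1. They were 1 and 0 with annotation numbers as listed, over other spots, and 3 and 0 with no array turned. The member median of 0.033 became -0.069 with median centring, -0.045 with scaling as well, 0.079 on the first array alone, -0.050 with numbers as listed and -0.033 as Cy3 over Cy5. As Cy3 over Cy5, AOX1 would stand at -1.52, GSTU6 at -0.92 (probe 10216) and -0.88 (probe 1678), GRXC10 at 0.65 and CAT-A at 1.0. With no array turned, GSTU6 probe 10216 would stand at -0.21, GRXC10 at 0.0066 and CAT-A at 0.17. The cause of these shifts was not tested, beyond the turned signs and fewer arrays that some settings hold by construction. Dim spots limit AOX1, CAT-B, APX8, MT4A and OsTrxh5. No paired analysis was possible because there was 1 replicate per group.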
